A study of Brassica napus with 9 samples.

Results

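Delta1-pyrroline-5-carboxylate synthetase (P5CS) genes were followed in guard cell protoplasts of Brassica napus after treatment with abscisic acid (ABA). The group consists of 6 gene rows given in advance by their identifiers, BnaA05g05760D, BnaC04g05620D, BnaA03g18760D, BnaA04g22810D, BnaC04g46630D and BnaA09g35230D, out of 101040 rows in the count table. All 6 genes had enough reads to be tested, along with 52881 genes in all. By their identifiers 4 of the 6 lie on the A subgenome, which B. napus has from B. rapa, and 2 on the C subgenome, from B. oleracea. The members were chosen with their change at 60 min of ABA known, so every comparison of 60 min with mock is a description here and is not used as evidence.

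P5CS is a bifunctional enzyme of the plastid and cytosol that phosphorylates glutamate and reduces the product to glutamate semialdehyde, which closes spontaneously to pyrroline-5-carboxylate. A separate reductase turns this into proline. The P5CS step limits the rate of the pathway and is inhibited by proline, an osmolyte that plants accumulate during drought. In Arabidopsis one P5CS gene is induced by ABA and osmotic stress, and another is expressed more constantly and serves growing tissue. Which of these Arabidopsis genes each B. napus copy corresponds to is not given in the sources used here, and the copies are therefore called by their identifiers.

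The plants were of the double-haploid line DH12075. A mock treatment with ethanol, 10 µM ABA for 15 min and 10 µM ABA for 60 min were compared, with 3 samples in each of the 3 groups. Every replicate number stands for 1 mock, 1 15-min and 1 60-min sample. Each sample pooled 3 to 5 protoplast isolations, and no mock sample was matched to each exposure time, so ABA and the time spent in light at room temperature cannot be told apart. The samples had between 88051359 and 123968001 counts. The unit of level is CPM, a count per 1000000 counts of the library after scaling by edgeR's TMM method. No gene lengths of these copies were used, so a level compared between copies is a level in reads and not per length of transcript. Changes of a copy over time do not depend on its length.

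The guard cell genes MPK12, ALMT12 and OST1 were looked up, of which all 7 rows named in the study's tables had counts in all 9 samples. Their summed level was 273, 227 and 838 CPM in replicates 1, 2 and 3 of the mock treatment. It was 315, 243 and 1079 CPM at 15 min and 1120, 639 and 2417 CPM at 60 min. Replicate 2 was lowest and replicate 3 highest in every group. The study listed these rows for their regulation in the same experiment, and their sum was higher at 60 min than in mock in every replicate. No sample of another cell type was compared, so these rows cannot establish the identity of the cells. Of genes marking other leaf cells only CAB1 (BnaC03g59520D), a light-harvesting protein gene that guard cell chloroplasts can express as well, could be named. It was added after the values were seen, and had 42.7, 43.0 and 19.8 CPM in mock replicates 1, 2 and 3, 38.6, 46.9 and 22.1 CPM at 15 min and 49.4, 56.9 and 34.7 CPM at 60 min. Replicate 3 was thus lowest for CAB1 in every group. The study listed this row among differentially expressed genes too, and it was higher at 60 min than in mock in every replicate.

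In mock-treated guard cells the reads of P5CS came mainly from a pair of copies. BnaA05g05760D had 159, 106 and 147 CPM in replicates 1, 2 and 3, and BnaC04g05620D had 160, 105 and 148 CPM. BnaA09g35230D followed with 33.2, 43.0 and 29.6 CPM. BnaA03g18760D had 17.6, 14.1 and 17.4 CPM, so its mock samples did not overlap with those of BnaA09g35230D or of the leading pair. BnaC04g46630D had 4.88, 8.07 and 6.95 CPM. BnaA04g22810D was the lowest at 0.144, 0.432 and 0.415 CPM, which rests on 14, 50 and 57 reads. The samples of BnaA05g05760D and BnaC04g05620D covered almost the same range, and every other neighbouring pair in this order had ranges that did not overlap. The study counted the protoplasts with a hemacytometer before treatment and reported them as nearly pure guard cells. In pooled cells like these, a change in the number of cells of a type and a change in RNA per cell cannot be told apart.

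**Figure D1:**
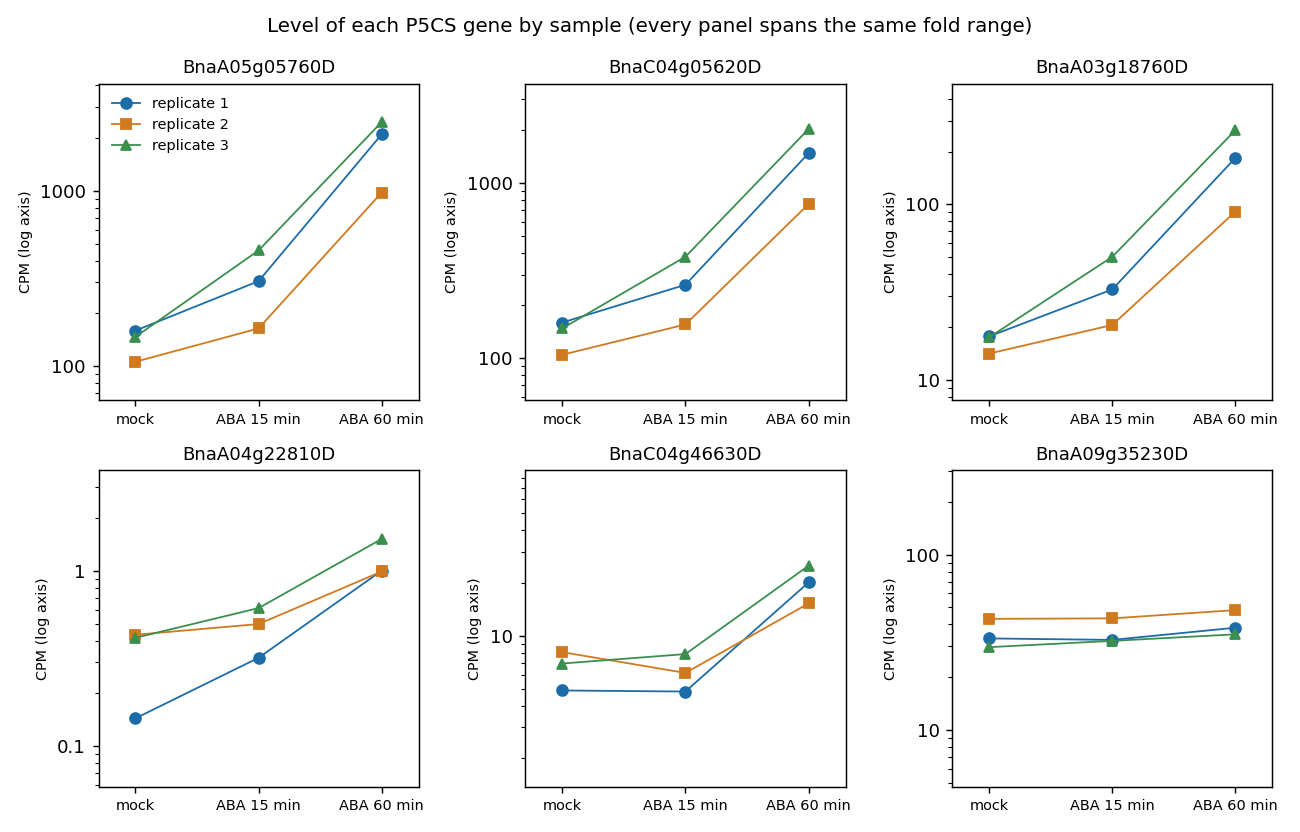
Level of each P5CS gene in CPM on a log axis in the mock, ABA 15 min and ABA 60 min samples, with 1 line per replicate number and panels that span the same fold range. BnaA05g05760D climbed from 106 to 159 CPM in mock to 978 to 2471 CPM at 60 min, while BnaA09g35230D stayed between 29.6 and 48.2 CPM over all 9 samples.

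After 15 min of ABA, BnaA05g05760D and BnaC04g05620D were up-regulated 2.08- and 1.82-fold. No P5CS gene was called lower by edgeR or DESeq2, and none had a negative change with an unadjusted p under 0.05, while 0.0359% of all genes were called lower by edgeR. BnaA05g05760D had 305, 164 and 457 CPM in replicates 1, 2 and 3 at 15 min. All 3 samples lay above the 3 mock samples, as in 1.55% of the genes tested. The log2 fold change of 1.06 had a standard error of 0.16 and passed edgeR's quasi-likelihood test with an adjusted p of 0.025. BnaC04g05620D had 262, 156 and 379 CPM, and replicate 2 at 15 min lay within the range of the mock samples. It was nevertheless higher than the mock sample of its number in 3 of 3 replicates, as were 16.5% of all genes. The log2 fold change of 0.87 had a standard error of 0.15, and the adjusted p was 0.044 in the same test. In all, 2 of 6 P5CS genes were called higher, against 0.395% of all genes tested. Calls in either direction made up 0.431%. The 15-min comparison was not used to choose the members, but it uses the same mock libraries as the 60-min comparison that was.

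Both calls at 15 min were lost when replicate 1 was left out. Without it the adjusted p-values were 0.55 for BnaA05g05760D and 0.69 for BnaC04g05620D, although the log2 fold changes were 1.12 and 0.94. The call of BnaC04g05620D was also lost without replicate 2, with an adjusted p of 0.052. Over all alternatives the adjusted p ranged from 2.1e-10 to 1 for BnaA05g05760D and from 1.1e-07 to 1 for BnaC04g05620D.

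The other 4 copies did not pass the threshold at 15 min. BnaA03g18760D had 32.7, 20.5 and 50.1 CPM, all above its mock samples. Its log2 fold change of 0.97 (standard error 0.18) lay between those of the pair that passed, with an adjusted p of 0.072 in edgeR's quasi-likelihood test. The adjusted p was 0.033 in DESeq2's Wald test and ranged from 2.0e-04 to 1 over all alternatives. BnaA04g22810D had 43, 54 and 87 reads and a log2 fold change of 0.53, with a 95% interval from -0.07 to 1.14.

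The remaining copies, BnaC04g46630D and BnaA09g35230D, were close to mock at 15 min. BnaC04g46630D had 4.81, 6.14 and 7.86 CPM, higher than the mock sample of its number in 1 of 3 replicates. Its log2 fold change was -0.09, with a 95% interval from -0.49 to 0.30, and it became 0.08 when replicate 2 was left out. BnaA09g35230D had 32.6, 43.3 and 32.2 CPM and a log2 fold change of 0.03. The 95% interval, from -0.10 to 0.17, ended below the lower bounds of 0.69 and 0.53 for BnaA05g05760D and BnaC04g05620D. The sign turned when libraries were scaled by total count alone, to -0.0061, or without replicate 3, to -0.017.

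At 60 min the copies stood far apart in how much they had changed. BnaA05g05760D had 2104, 978 and 2471 CPM in replicates 1, 2 and 3, BnaC04g05620D had 1479, 758 and 2032 CPM, and BnaA03g18760D had 184, 90.9 and 265 CPM. None of these samples overlapped with mock or with 15 min. The log2 fold changes against mock were 3.65 (standard error 0.18) for BnaA05g05760D, 3.27 (standard error 0.16) for BnaC04g05620D and 3.32 (standard error 0.20) for BnaA03g18760D. On the linear scale these are 12.6-, 9.64- and 10.02-fold.

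The copies with few reads changed less. BnaC04g46630D had 20.2, 15.3 and 25.1 CPM at 60 min, a log2 fold change of 1.61 (standard error 0.18). BnaA04g22810D had 1.00, 0.992 and 1.52 CPM, from 100, 99 and 173 reads, a log2 fold change of 1.86 (standard error 0.26). For both, the 60-min samples lay above all mock and 15-min samples. All 3 samples above all 3 mock samples was seen for 5 of the 6 members and for 8.11% of the genes tested. All 3 samples above all 3 samples at 15 min was likewise seen for these 5 members and for 7.27% of the genes tested.

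BnaA09g35230D was the exception, with 38.3, 48.2 and 35.1 CPM at 60 min and samples that overlapped with mock. It was higher than the mock sample of its number in 3 of 3 replicates, as were 26.2% of all genes, by 0.20, 0.17 and 0.24 on the log2 scale. Its log2 fold change was 0.20 (standard error 0.06), which turned to -0.09 with libraries scaled by total count alone. That scaling moved the median log2 fold change of all genes at 60 min by -0.29. In the fit with TMM scaling 6 of 6 P5CS genes were called higher at 60 min, against 15.2% of all genes, while 10.6% were called lower and 25.7% in either direction. The members were chosen on this comparison, and nothing is read from that count.

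**Figure D2:**
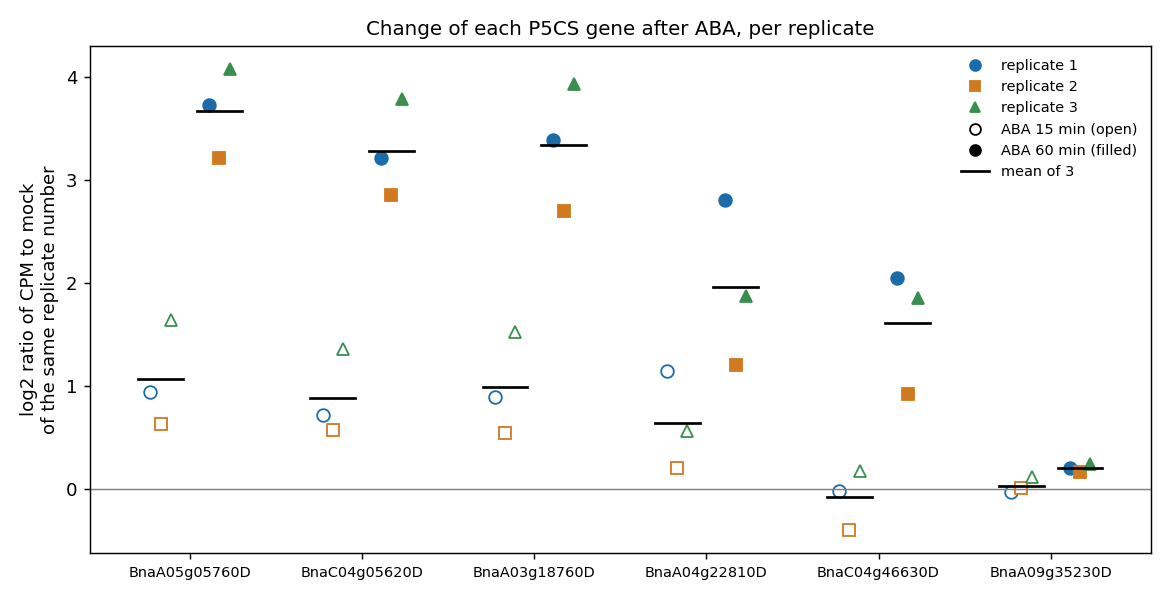
Log2 ratio of CPM to the mock sample of the same replicate number for each P5CS gene at 15 min (open) and 60 min (filled), with the mean of 3 as a line. Means at 60 min ran from 0.20 for BnaA09g35230D to 3.67 for BnaA05g05760D, and replicate 2 was lowest at 60 min for every copy.

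By timing, BnaC04g46630D stood apart from BnaA05g05760D, BnaC04g05620D and BnaA03g18760D. The log2 ratio to mock, taken within a replicate number, had reached 28.4% ± 10.6 (SD, n = 3) of its 60-min value by 15 min for BnaA05g05760D. It had reached 26.1% ± 8.58 for BnaC04g05620D, and 28.4% ± 9.55 for BnaA03g18760D. The values for BnaA04g22810D lay between 16.995% in replicate 2 and 41.0% in replicate 1, with a mean of 29.4%. They rest on few reads, 14 in mock replicate 1, and the 95% interval of its change at 15 min included no change. The means of these 4 copies differed by less than the spread between replicates. For BnaC04g46630D the values were -0.997%, -42.7% and 9.64% in replicates 1, 2 and 3, so its whole increase fell between 15 and 60 min in replicates 1 and 2. For BnaA09g35230D, which changed little at either time, they were spread from -14.0% in replicate 1 to 49.0% in replicate 3. From 15 to 60 min BnaC04g46630D rose by 1.70 on the log2 scale, with a standard error of 0.18. This was above the 1.33 (standard error 0.25) of BnaA04g22810D and below the 2.36 (standard error 0.19) of BnaA03g18760D. Between 15 and 60 min 5 of 6 members were called higher, against 14.2% of all genes. Of all genes 9.45% were called lower, 23.7% in either direction, and 27.1% were higher at 60 min within all 3 replicate numbers, as all 6 members were. The comparison uses the 60-min libraries on which the members were chosen, so nothing is read from these counts.

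The 15 possible pairs of copies were compared by the difference of their log2 ratios to mock within each replicate number, which removes library scaling and length. At 15 min 10 of 15 pairs, and at 60 min 14 of 15 pairs, differed in the same direction in 3 of 3 replicates. With 3 replicates an exact sign-flip test cannot go below a two-sided p of 0.25. It was not run, nor was another test of the pairs. BnaC04g05620D and BnaA03g18760D were the pair without a common direction at 60 min, at -0.17, 0.16 and -0.15 in replicates 1, 2 and 3. BnaA05g05760D exceeded BnaC04g46630D at 15 min by 0.96, 1.03 and 1.46. BnaA04g22810D also exceeded BnaC04g46630D at 15 min, by 1.17, 0.60 and 0.39, and at 60 min by 0.75, 0.28 and 0.020.

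The summed level of P5CS was highest at 60 min in every replicate. The sum over the 6 copies was 375, 276 and 349 CPM in mock replicates 1, 2 and 3, and 638, 390 and 927 CPM at 15 min. At 60 min it was 3827, 1892 and 4830 CPM, with no overlap between any of the groups. The mean log2 ratio to mock was 0.89 ± 0.47 (SD, n = 3) at 15 min and 3.31 ± 0.51 at 60 min. As a part of all counts in the library, P5CS reads went from 0.0414%, 0.0262% and 0.0419% in mock to 0.343%, 0.154% and 0.453% at 60 min.

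Replicates differed in the size of the response in a like order. The summed level was 6.86-fold above mock at 60 min in replicate 2, 10.2-fold in replicate 1 and 13.8-fold in replicate 3. At 15 min the same replicates stood at 1.41-, 1.70- and 2.66-fold. The summed level of the guard cell genes named above was also lowest in replicate 2 and highest in replicate 3 in every group. This is an order of levels and not of changes. The sum rests mainly on ALMT12 and MPK12, while the OST1 rows lay between 2.23 and 2.62 CPM and between 3.06 and 3.91 CPM in mock. Over the 207 other genes called higher at 15 min, the median log2 ratio to mock was also lowest in replicate 2, at 0.84, followed by 1.09 in replicate 1 and 1.29 in replicate 3. The part of the cell makeup in the response was not tested. BnaA09g35230D had another order of levels, since it was highest in replicate 2 in all 3 groups, where BnaA05g05760D, BnaC04g05620D and BnaA03g18760D were lowest. BnaC04g46630D and BnaA04g22810D were highest in replicate 2 in mock as well, but in replicate 3 at 15 and 60 min.

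The composition of the P5CS reads shifted toward BnaA05g05760D. This copy held 42.5%, 38.3% and 42.0% of P5CS reads in mock replicates 1, 2 and 3 and 47.8%, 42.0% and 49.3% at 15 min. At 60 min it held 55.0%, 51.7% and 51.2%. The 60-min shares lay above all earlier ones. The widest of these 95% exact binomial intervals, in mock replicate 2, ran from 37.8% to 38.9% and covers counting error only. The mean share of BnaC04g05620D was 41.0% ± 2.65 (SD, n = 3), 40.6% ± 0.64 and 40.3% ± 1.71 in mock, at 15 min and at 60 min, but its replicates moved in different directions. Its share was 42.6%, 37.9% and 42.4% in mock replicates 1, 2 and 3 and 38.7%, 40.1% and 42.1% at 60 min, lower in replicates 1 and 3 and higher in replicate 2. BnaA03g18760D had mean shares of 4.93% ± 0.20, 5.26% ± 0.14 and 5.03% ± 0.39.

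The share of BnaA09g35230D went the other way. It held 8.87%, 15.6% and 8.49% of P5CS reads in mock. Its share was 5.11%, 11.1% and 3.47% at 15 min and 1.00%, 2.55% and 0.726% at 60 min. BnaC04g46630D went from a mean share of 2.07% ± 0.82 in mock to 0.619% ± 0.165 at 60 min, although its own level was higher. BnaA04g22810D held at most 0.156% of P5CS reads in any sample. Of the CPM gained between mock and 60 min, BnaA05g05760D supplied 54.1% ± 2.23 (SD, n = 3), BnaC04g05620D 40.2% ± 1.91 and BnaA03g18760D 5.04% ± 0.42. The other 3 copies together supplied the small remainder, with 0.432% ± 0.023 from BnaC04g46630D, 0.197% ± 0.111 from BnaA09g35230D and 0.0281% ± 0.0057 from BnaA04g22810D.

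**Figure D3:**
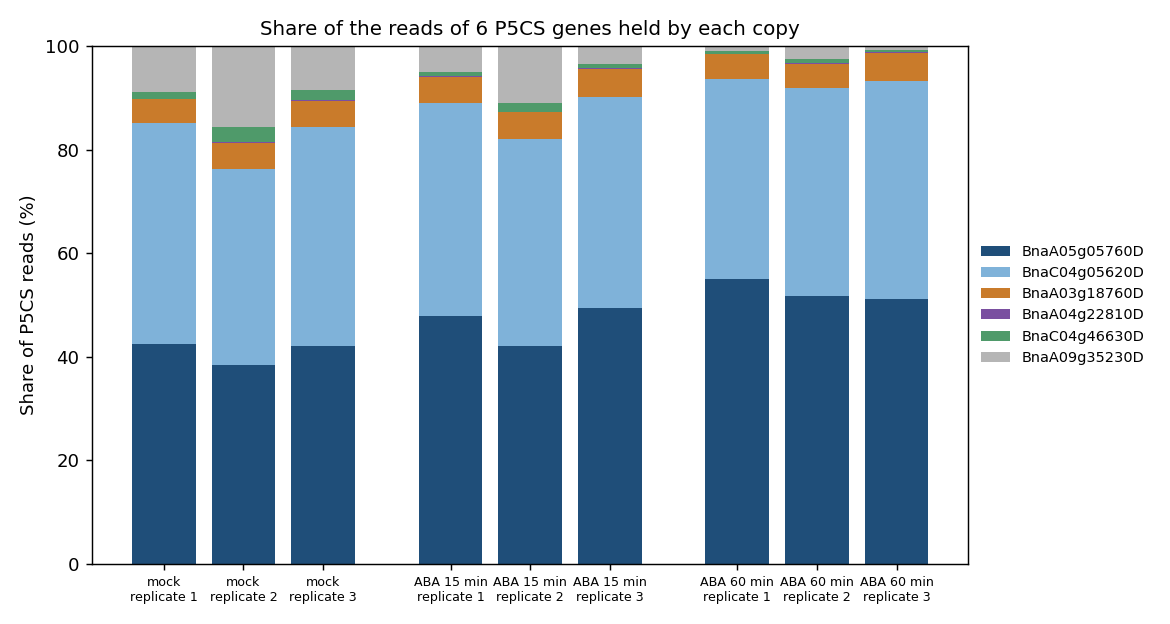
Share in percent of the reads of 6 P5CS genes held by each copy, as stacked bars from 0 to 100 for each of 9 samples. The share of BnaA05g05760D was between 38.3% and 42.5% in mock and between 51.2% and 55.0% at 60 min, and that of BnaA09g35230D went from between 8.49% and 15.6% to between 0.726% and 2.55%.

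The leading pair parted after ABA. BnaA05g05760D and BnaC04g05620D had 15486 and 15533 reads in mock replicate 1, 12253 and 12122 in replicate 2, and 20156 and 20342 in replicate 3. BnaA05g05760D thus took 49.9%, 50.3% and 49.8% of the reads of the pair, and in each library the 95% exact binomial interval included an equal split. It took 53.8%, 51.3% and 54.7% at 15 min and 58.7%, 56.3% and 54.9% at 60 min, and these 6 intervals all lay above an equal split. The difference of the log2 ratios to mock was 0.22, 0.059 and 0.28 at 15 min and 0.51, 0.35 and 0.30 at 60 min. In replicate 3 nearly the whole shift was present by 15 min, whereas in replicates 1 and 2 the share rose further to 60 min. Reads that fit more than 1 place were discarded by the authors, so the split is measured where the copies differ in sequence, and how much of each copy that is was not tested.

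**Figure D4:**
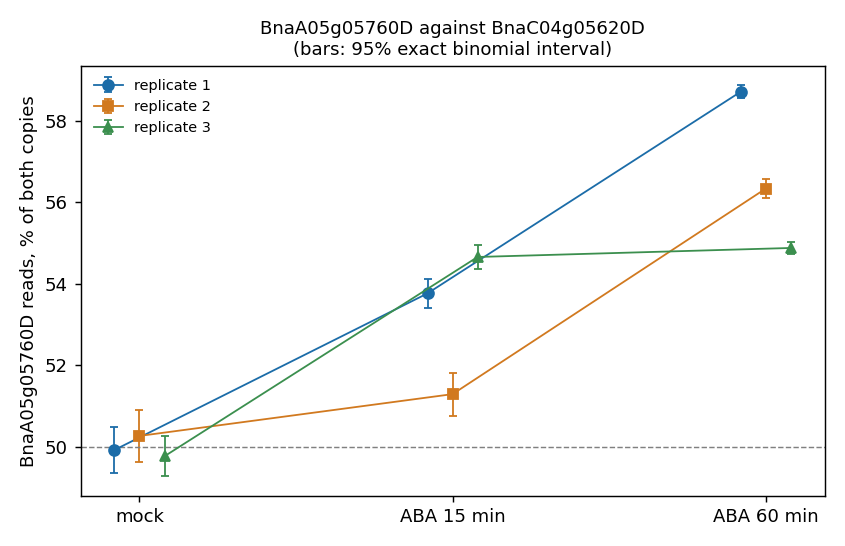
Reads of BnaA05g05760D as a percentage of the reads of BnaA05g05760D and BnaC04g05620D, by group and replicate number, with 95% exact binomial intervals and a dashed line at an equal split. The mock samples lay between 49.8% and 50.3%, and the 60-min samples between 54.9% and 58.7%.

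By their profile over the 9 samples, each centred on its replicate number, the copies fell into a tight trio and others. BnaC04g05620D and BnaA03g18760D were closest, at a Euclidean distance of 0.23 in log2 CPM, and BnaA05g05760D was 0.51 and 0.48 from them. BnaC04g46630D and BnaA04g22810D were 0.93 apart, and BnaA09g35230D was at least 2.15 from every other copy. The members were then set against 41626 other genes, each with 50 or more counts on average. The nearest to BnaA05g05760D were BnaA06g13700D, at a distance of 0.30, the ABF3 genes BnaAnng26550D, BnaC01g04330D and BnaC07g44670D, at 0.48, 0.49 and 0.52, and BnaC01g20120D, at 0.54. ABF3 is a bZIP transcription factor that binds ABA-responsive elements. The median distance over the 41626 genes was 4.68 to BnaA05g05760D but 0.54 to BnaA09g35230D. These members were picked by the size of their change, so nothing is read from this contrast. The genes nearest to BnaA09g35230D, from 0.041 to 0.053, were BnaA06g01290D, BnaC03g66140D, BnaC05g45420D, BnaC02g48770D and BnaA08g26150D, for which no name was given in the sources used here. These distances are descriptions from the libraries that the genes share.

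The ABA signalling genes that the study tabulated, which were selected for their change in this experiment and are no independent evidence of direction, were set beside the P5CS genes. Over all genes 0.395% were called higher and 0.0359% lower at 15 min, and 15.2% higher and 10.6% lower at 60 min. Of 19 genes for PP2C phosphatases, which hold the pathway back, 5 were called higher at 15 min and 19 at 60 min, with median log2 fold changes of 0.63 and 2.12. Of 10 ABF genes none was called at 15 min by edgeR or DESeq2, although 4 had an unadjusted p under 0.05 with each tool, and 10 were called higher at 60 min, with medians of 0.23 and 2.07. Of 18 genes for PYR/PYL receptors 2 were called lower at 15 min and 17 at 60 min, with medians of -0.61 and -1.93, and 1 was called higher at 60 min. The 6 P5CS genes had medians of 0.70 at 15 min and 2.56 at 60 min, against 0.00067 and -0.026 over all genes tested. Genes for later steps of proline metabolism were not analysed here, because the tables used for names pair none of them with these identifiers.

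Of the 120 genes with neighbouring identifier numbers, 10 tested genes on either side of each member, none was called at 15 min by edgeR or DESeq2. Calls were so few over all genes, at 0.431% in either direction with edgeR, that nothing is read from this count. With edgeR 4 of them were higher and 1 lower at an unadjusted p under 0.05. The median log2 fold change around a member lay between -0.06 and 0.03. The highest value at 15 min, 1.31 for BnaC04g05580D, lay above the 0.87 of BnaC04g05620D beside it. At 60 min, 5 of 20 neighbours of BnaA05g05760D, 6 of 20 of BnaC04g05620D, 2 of 20 of BnaA03g18760D, 5 of 20 of BnaA04g22810D, 1 of 20 of BnaC04g46630D and 4 of 20 of BnaA09g35230D were called higher, against 15.2% of all genes. Between 1 and 3 of 20 around each member were called lower, against 10.6%. The largest log2 fold changes among neighbours of the 3 copies that changed most were 2.97 for BnaA05g05840D, 3.44 for BnaC04g05700D and 3.14 for BnaA03g18690D, beside 3.65, 3.27 and 3.32 for the respective P5CS genes. The highest neighbouring value was 0.59 for BnaC04g46630D, beside its own 1.61. It exceeded the member for BnaA04g22810D, at 2.64 for BnaA04g22910D beside 1.86, and for BnaA09g35230D, at 2.02 for BnaA09g35150D beside 0.20. Identifier numbers stand in for position here, since no coordinates of this annotation were used.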

How the data were processed

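RNA of 9 guard cell protoplast samples in 3 groups of 3 was sequenced as single-end reads of 100 bases. The authors used TopHat2 to align these to the Darmor genome, a line other than the one sampled, and HTSeq to count reads that fell on a single gene, discarding multi-mapped reads. They deposited these counts without normalization. Tool versions, annotation release and strand setting are not given in the sources used here, so near-identical copies and overlapping genes are uncertain.

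Counts were filtered with filterByExpr, scaled by TMM and tested over 52881 genes with edgeR 4.0.16 under R 4.3.3. The quasi-likelihood test used 1 model of all 9 samples with treatment and, as in the study's methods, replicate number, and Benjamini-Hochberg adjustment with a threshold of 0.05. Standard errors are the size of the log2 fold change over the root of its F statistic. Intervals for shares are exact binomial (Clopper-Pearson) and cover counting error only. The replicate number pairs the samples, since each biological sample included every treatment. Deviations from group means correlated at 0.715 to 0.851 for samples sharing a number across groups, and at -0.588 to -0.156 between different numbers. Given the positive values, the negative ones follow from centring each group on its own mean and add no evidence of pairing. The model takes out the level shared by samples of the same number. The p-values therefore rest on the size of the treatment changes set against their variation between replicate numbers, and not against the spread in level between pools.

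The members and lists were chosen with earlier results of these data known. Beside the 6 members, the 5 genes nearest in profile to the member with the largest 60-min change, and to the one with the smallest, are named by rule. The profile used log2 CPM with a prior count of 2. CAB1 and the neighbouring genes given by identifier were chosen with their values known. DESeq2 1.42.0 was an alternative, beside other scalings, filters, no block, only the groups compared and leaving out replicates. The tests were tried on simulated data.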

Additional observations from a re-analysis of the deposited data

Results flagged for a closer look

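In the same model, the level of 5 of the 6 P5CS genes was called different between 15 and 60 min of ABA. Of all genes tested 14.2% were called higher at 60 than at 15 min. The difference, on the log2 scale, was 2.59 for BnaA05g05760D, 2.40 for BnaC04g05620D, 2.36 for BnaA03g18760D, 1.33 for BnaA04g22810D and 1.70 for BnaC04g46630D, each higher at 60 min in 3 of 3 replicates. The adjusted p-values ran from 2.5e-05 to 0.0039 in edgeR's quasi-likelihood test. Without the replicate block 1 of the 6 genes, BnaC04g46630D, was called, with an adjusted p of 0.044, and those of the other 4 were 0.061 for BnaA05g05760D and BnaA03g18760D, 0.065 for BnaC04g05620D and 0.38 for BnaA04g22810D. The comparison uses the 60-min libraries on which the members were chosen, so these values are a description. BnaA09g35230D differed by 0.17, with an adjusted p of 0.066.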

How the results depend on the processing

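Of 282 values recomputed under other settings, 251 were counted as kept. A log2 fold change had to keep its direction and its side of the threshold. A share or summed level had to move by less than the spread between replicates. With 1 of 3 replicates left out a mean cannot move that far, so those values could not fail. A count of called genes only had to stay close, so 3 in place of 2 at 15 min and 4 in place of 6 at 60 min were kept. The number of P5CS genes called at 15 min was 2, became 1 with a filter at a mean of 50 counts and 0 without the replicate block, where 2 had an unadjusted p under 0.05, and ranged from 0 to 3 when single replicates were left out. It was 0 without replicate 1, where 3 had an unadjusted p under 0.05, and 3 with DESeq2. Without the block the adjusted p at 15 min was 1 for BnaA05g05760D and BnaC04g05620D. The number called at 60 min stayed between 4, without the block, and 6. BnaA09g35230D reversed under scaling by total count alone, to -0.0061 at 15 min, -0.090 at 60 min and -0.084 between 60 and 15 min, and to -0.017 at 15 min without replicate 3, in a range up to 0.064 without replicate 1. BnaC04g46630D reversed at 15 min without replicate 2, to 0.078, in a range down to -0.25 without replicate 3. Leaving out any one replicate ended the call of BnaA09g35230D at 60 min, with adjusted p-values from 0.11 to 0.18. The summed level, as a mean log2 ratio to mock, lay between 0.63 and 1.09 at 15 min over all settings, and at 60 min between 3.01 and 3.57. Over all genes, 228 were called at 15 min, against 5 without the block, 5 without replicate 1, 490 with DESeq2, 584 with no filter on low counts and 898 with only the groups compared. At 60 min 13616 were called, against 895 without the block, 5818 without replicate 1 and 27370 with total count scaling. Shares of P5CS reads do not depend on scaling. The depth limits BnaA04g22810D, with 14 reads in mock replicate 1.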
